A study of Mus musculus with 15 samples.

Results

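The 39 genes described here encode the machinery that copies DNA in S phase and the enzymes that supply or guard its nucleotides. They were taken as a named list, from origin licensing factors to clamp loader subunits, with no cut-off on a measured value. The list was drawn up with earlier results of these data known, so its counts are descriptions. Each was read from a probe set annotated to that symbol alone, with the brightest probe set used where a gene had more than 1. All 39 were found among the 19933 genes measured. Only Pcna and Tk1 had 2 such probe sets.

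The cells were G1E, a mouse proerythroblast line that lacks GATA1, the transcription factor that drives red cell maturation. Every group expressed GATA1-ER, GATA1 joined to an estrogen receptor domain, and every culture had been given 100 nM estradiol for 24 hours to switch the fusion on. The fusion was wild type or held 1 of 4 amino acid changes at R216 or D218, residues of the amino-terminal zinc finger: R216Q, R216W, D218G or D218Y. Each of the 5 lines had 3 biological replicates, giving 15 Affymetrix arrays of total RNA, and the study set each mutant line against wild type. Untreated cells were not used here. The sources used here do not give the number of clones or transduced pools per construct. The amino acid change and the line that carries it cannot be told apart, and a p-value reflects only how far cultures of 1 line spread. In these bulk samples, fewer cells of a type and less RNA per cell cannot be told apart.

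Replication starts when the origin recognition complex, Cdc6 and Cdt1 load the ring-shaped Mcm2-7 helicase onto DNA before S phase. Cdc45 and the GINS complex then turn the loaded ring into an active helicase, polymerase alpha with primase lays down primers, and polymerases epsilon and delta extend them on the Pcna clamp, which the replication factor C complex loads. Proerythroblasts divide rapidly, and erythroid maturation couples their last divisions to differentiation before the cycle stops. Many S phase genes are textbook targets of the E2F factors.

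Values are log2 expression, on which a difference of 1 is a doubling. A difference is given with limma's standard error (SE), and a gene is said to rise or fall where its adjusted p was under 0.05 by limma with Benjamini-Hochberg adjustment over all 19933 genes. Within a line the median standard deviation of a gene was 0.05 to 0.08, and that of the 39 genes was 0.03 to 0.04. Array medians over all 19933 genes ran from 6.37 to 6.56, and replicate 3 of D218G stood apart from its line at 6.37 against 6.51 and 6.55. Gata1 itself was high in all lines but not equal. It read 12.35 to 12.36 in wild type, 12.14 to 12.16 in R216Q and 12.24 to 12.26 in R216W. In D218G it read 12.33 to 12.38 and in D218Y 12.05 to 12.08. The arrays of R216Q, R216W and D218Y lay below every wild type array, and those of D218G overlapped them. Gata1, which these cells were given as the GATA1-ER fusion, is among the 10 measured erythroid markers, so their counts and mean level include it. All 10 lay above the array median in the other lines and 9 did in D218Y. The mean level of those markers was 11.12 to 11.13 in wild type, 10.55 to 10.61 in R216Q, 10.74 to 10.84 in R216W, 10.67 to 10.71 in D218G and 9.31 to 9.34 in D218Y. None of 8 granulocyte and monocyte markers or 4 lymphoid markers was above the array median in any line. Of 5 measured megakaryocyte markers 3 were above it in every line, and their mean level was 7.29 to 7.38 in wild type, 6.84 to 6.92 in R216Q, 7.18 to 7.27 in R216W, 6.87 to 6.97 in D218G and 6.38 to 6.47 in D218Y. They held 2 falls in R216Q, 1 in R216W, 2 in D218G and 3 in D218Y, with 0 rises. Of 5 stroma markers 3 were above the array median in every line, and the only call was 1 fall in D218Y. The part of these markers in the results was not tested.

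RefSeq start site windows of GRCm38.p6, from 250 bases before to 50 after a start, were given for 32 of the 39 genes; Mcm4, Gins1, Gins2, Prim2, Pole, Rfc2 and Gmnn had none. They were searched on both strands for E2F type letters (TTTCCCGC, TTTCGCGC, TTTGCCGC or TTTGGCGC). Of the 32 genes 14 held a match (43.8%), against 3.48% of 15559 measured genes with a window. Counted by window, the shares were 37.8% of 37 and 2.26% of all 32851. The 14 were Orc1, Cdc6, Cdt1, Mcm3, Mcm5, Mcm6, Mcm7, Gins3, Pola1, Pole2, Pold1, Rfc3, Lig1 and Uhrf1. In the following stretches, chosen because the genes differ in how they moved, capitals mark E2F type letters, and each is printed in the direction of its gene. They come from chr1:128359730-128359830 on the minus strand (Mcm6), chr8:75109341-75109382 on the plus strand (Mcm5), chr11:98907998-98908035 on the plus strand (Cdc6), chr4:108579412-108579449 on the plus strand (Orc1), chr8:95633503-95633540 on the plus strand (Gins3) and chr17:56304113-56304150 on the plus strand (Uhrf1).
Mcm6: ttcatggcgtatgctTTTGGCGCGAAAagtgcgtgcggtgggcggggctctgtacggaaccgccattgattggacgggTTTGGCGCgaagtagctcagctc
Mcm5: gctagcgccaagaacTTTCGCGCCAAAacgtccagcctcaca
Cdc6: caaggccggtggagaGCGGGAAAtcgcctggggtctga
Orc1: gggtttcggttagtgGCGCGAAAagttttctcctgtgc
Gins3: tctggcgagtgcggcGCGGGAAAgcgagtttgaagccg
Uhrf1: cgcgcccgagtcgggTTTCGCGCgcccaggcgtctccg
In Mcm6 and Mcm5 a forward and a reverse match overlap, and in Cdc6, Orc1 and Gins3 the letters lie on the opposite strand. All the stretches lie before the start site. Of these genes Cdc6, Orc1, Mcm5 and Mcm6 fell in D218Y, Gins3 did not pass the test in any line, and Uhrf1 rose in both D218 lines.

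GATA type letters (AGATAA or TGATAA) were in the windows of 2 of the 32 genes (6.25%), against 17.0% of measured genes. These were Cdc45 and Fen1, at chr16:18812158-18812193 and chr19:10204539-10204574, both on the minus strand, shown because both genes fell in R216Q, R216W and D218Y. Other GATA type letters, such as AGATAG, were not searched, so the count and the capitals cover only the forms named. The Fen1 stretch holds agatag, unmarked, just before its capitals.
Cdc45: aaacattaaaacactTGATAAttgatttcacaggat
Fen1: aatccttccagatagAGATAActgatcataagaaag
CCAAT, the letters of the NF-Y type, was in 20 of the 32 (62.5%), against 41.7% of measured genes. The median GC content of the windows was 58.3%, against 57.7% for all measured genes. A match describes the letters alone, and binding was not measured.

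Across the 5 lines, 32 of the 39 genes (82.1%) differed by limma's F test, against 41.9% of all genes and 84.1% of the brightest 20% of genes. The differences were small: no mutant line mean lay more than 0.69 from wild type on the log2 scale. Of the 39, 37 were in the brightest 20% of all genes, and the exceptions were Gmnn and Ung. Bright genes vary less between replicates and are called more often, so the share called in the brightest 20% (3987 genes) is given beside that of all genes. Counting both directions, the share of the 39 called was 43.6% in R216Q, 33.3% in R216W, 35.9% in D218G and 64.1% in D218Y, below the 50.3%, 38.5%, 40.8% and 74.2% of the brightest 20%.

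Replication genes were lower in R216Q. In that line 17 of the 39 fell and 0 rose, with Rfc2, Tk1, Pold1 and Cdc45 furthest down. Among all genes 9.65% fell and 11.8% rose, and in the brightest 20% 24.8% fell and 25.4% rose. The median difference of the 39 was -0.09, against -0.01 for all genes. The arrays of R216Q lay wholly below those of wild type for 22 of the 39 and wholly above for 2 (15.1% and 16.5% of all genes). At an unadjusted p under 0.05, limma placed 22 lower and 1 higher. With the arrays shifted to the same median 8 fell (Cdc6, Mcm7, Cdc45, Gins2, Pold1, Rfc2, Fen1 and Tk1) and 0 rose, while 6.25% of all genes fell and 8.37% rose. Of the 17 falls, 12 held with any single array left out, and those of Orc1, Gins1, Pola1, Rpa2 and Uhrf1 did not (adjusted p up to 0.121, 0.128, 0.091, 0.171 and 0.0707).

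In R216W fewer genes passed, 10 lower and 3 higher. Rfc2, Orc1 and Fen1 fell most, while the primase subunit Prim2 rose. Among all genes 7.23% fell and 9.36% rose, and in the brightest 20% 19.1% and 19.3%. The median of the 39 was -0.07, against -0.02 for all genes. No array overlapped wild type for 21 genes on the low side and 3 on the high side (14.9% and 15.2% of all genes). With equal array medians 4 fell (Orc1, Gins2, Rfc2 and Fen1) and 1 rose (Prim2), with 3.5% and 7.02% of all genes. Leaving out single arrays ended the calls of Mcm5, Mcm10, Rfc5 and Rfc3 (adjusted p up to 0.0743, 0.119, 0.108 and 0.22), and that of Rfc3 was lost when any 1 of 13 of the 15 arrays was left out.

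D218G was the line in which more of these genes rose than fell. There 9 rose, led by Ung, Cdt1 and Orc1, and 5 fell, led by Rfc2, Tk1 and Gins1. Among all genes 10.3% rose and 7.77% fell, and in the brightest 20% 20.3% and 20.5%. The median of the 39 was 0.04, against -0.02 for all genes, and it was 0.02 against 0.01 without replicate 3, the array that stood apart. Arrays lay wholly above wild type for 16 genes and wholly below for 6 (14.2% and 12.2% of all genes). Equal array medians left 3 rises (Cdt1, Ung and Uhrf1) and 1 fall (Rfc2), and a fit on the arrays of these lines alone 2 and 1. With equal medians 7.84% of all genes rose and 3.99% fell. The calls that held with any single array left out were 4 rises (Cdt1, Pole2, Ung and Uhrf1) and 2 falls (Rfc2 and Lig1).

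D218Y had the most falls. Of the 39 genes 20 fell and 5 rose, and the falls took in all of Mcm2 to Mcm7, Cdc45, Gins1 and Gins2, and the Okazaki fragment enzymes Fen1 and Lig1. Among all genes 24.2% fell and 20.3% rose, and in the brightest 20% 36.7% and 37.5%. The median of the 39 was -0.12, against -0.07 for all genes. Arrays lay wholly below wild type for 21 genes and wholly above for 8 (33.3% and 22.6% of all genes). With equal array medians 12 fell (Orc1, Cdc6, Mcm5, Mcm7, Cdc45, Gins1, Gins2, Pold1, Rfc2, Fen1, Lig1 and Tk1) and 6 rose, so that 66.7% of the calls were falls in place of 80%, and the median of the 39 was -0.02. Among all genes 11.6% then fell and 23.1% rose, with a median of 0.02. As deposited, the brightest 20% of genes, which hold 37 of the 39, had a median difference of 0.01. The shift therefore raised bright genes whose median already lay near that of wild type. The share of the brightest 20% called under that setting was not computed. With any single array left out 17 falls and 4 rises held, and those of Mcm3, Pole2, Rfc4 and Ung did not (adjusted p up to 0.0511, 0.0779, 0.0727 and 0.151). In the same line all 10 erythroid markers fell, while 8 fell in R216Q, 6 in R216W and 7 in D218G, with 0 rises. The mast cell gene Ms4a2 read 6.36 to 6.78 against 4.02 to 4.16 in wild type, and Cpa3 read 5.82 to 6.08 against 5.25 to 5.29. The mean of the 7 mast cell markers was 5.09 to 5.16 in D218Y and 4.71 to 4.78 in wild type, but only these 2 genes rose, 1 fell, and the median difference of the 7 was -0.01. Of 5 measured megakaryocyte markers 3 fell in D218Y, Gp9 most (-1.93). The part of these markers in the fall of the replication genes was not tested.

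**Figure D1:**
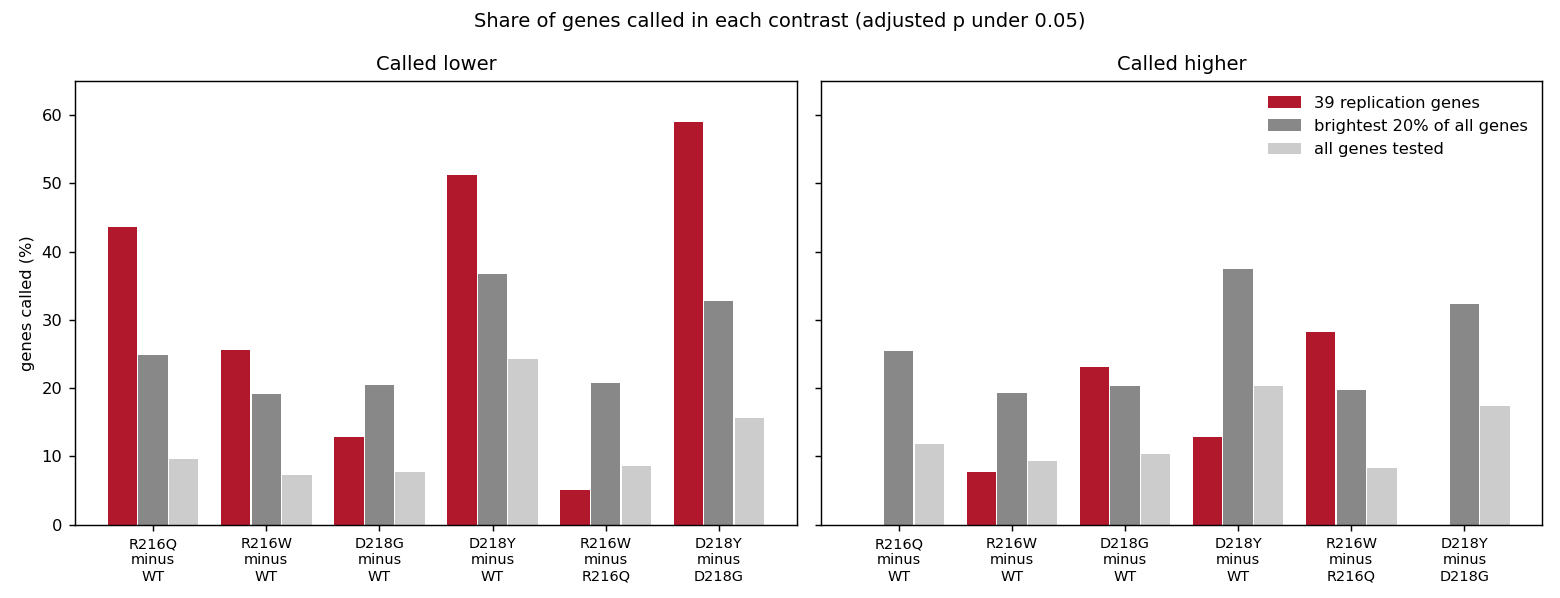
Share of genes called lower (left) and higher (right) by limma in each of 6 contrasts, in percent, for the 39 replication genes, the brightest 20% of all genes and all genes tested. The shares called lower among the 39 genes were 43.6% in R216Q and 51.3% in D218Y, above both backgrounds, and no gene of the 39 was called higher in R216Q or in D218Y against D218G.

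Of the 39, only Cdc6 and Rfc2 fell in all 4 mutant lines, and Orc1 passed in all 4 but rose in D218G. There were 8 genes that passed in no mutant line: Orc6, Gmnn, Gins3, Prim1, Pcna, Rfc1, Rrm2 and Tyms. At an unadjusted p under 0.05, limma placed 1 of the 8 lower in R216Q, 2 lower in R216W, 0 in D218G and 1 higher in D218Y. With equal array medians Prim1, a primase subunit, passed in D218Y (0.20, adjusted p = 0.0361).

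**Figure D2:**
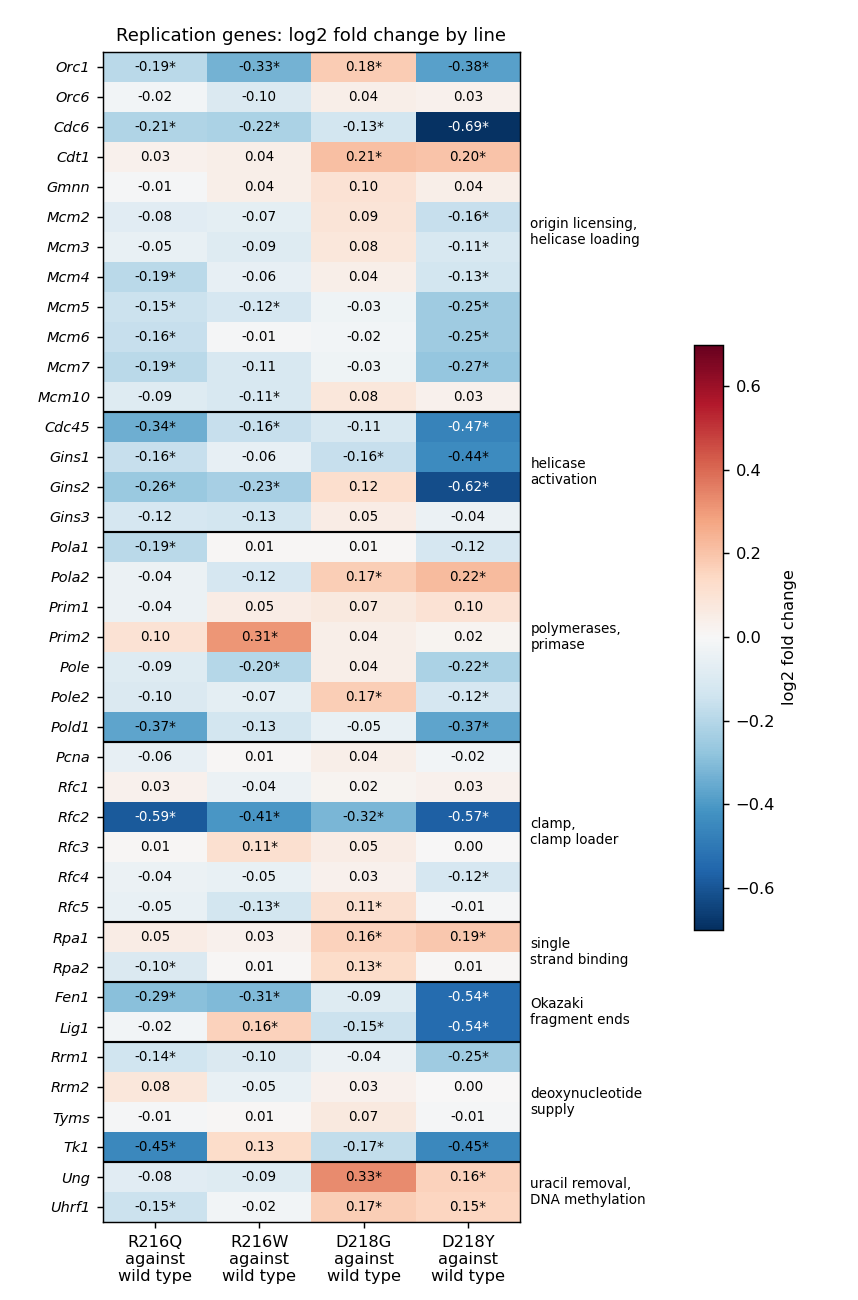
Log2 fold change of each of the 39 genes (rows, grouped by role) in each mutant line against wild type (columns), from limma; blue is lower, red is higher and an asterisk marks an adjusted p under 0.05. Rfc2 and Cdc6 are blue and marked in all 4 columns, the Mcm2 to Mcm7 rows are all marked lower in D218Y, and the D218G column holds 9 marked rises.

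Among the licensing genes, 6 of 12 fell in R216Q, 4 in R216W, 1 in D218G and 8 in D218Y. In these lines 9.65%, 7.23%, 7.77% and 24.2% of all genes fell, and 24.8%, 19.1%, 20.5% and 36.7% of the brightest 20%. Rises numbered 2 in D218G and 1 in D218Y, where 10.3% and 20.3% of all genes rose. With equal array medians Cdc6 and Mcm7 fell in R216Q and Orc1 in R216W. Orc1, Cdc6, Mcm5 and Mcm7 then fell in D218Y, and no licensing gene fell in D218G. Of the 12, Cdc6 and Orc1 moved most. Cdc6, the ATPase that recruits the helicase to the origin complex, read 11.05, 11.16 and 11.04 in wild type (mean 11.08 ± 0.06 SD, n = 3). It read 10.81, 10.88 and 10.91 in R216Q, 10.84, 10.90 and 10.85 in R216W and 10.91, 10.92 and 11.01 in D218G. In D218Y it read 10.37, 10.40 and 10.40. Every mutant array was below every wild type array, and the D218Y arrays were below all others. The fall in D218Y was 0.69 on the log2 scale (SE 0.04, adjusted p = 3.63e-09), so the level decreased by 38.1%. It fell by 0.21 in R216Q (adjusted p = 0.00165), by 0.22 in R216W (adjusted p = 0.0019) and by 0.13 in D218G (adjusted p = 0.0402). The D218G call was lost when any 1 of 10 arrays was left out (adjusted p up to 0.162).

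Orc1, the ATPase subunit of the origin recognition complex, was the licensing gene with calls in both directions. It read 9.96, 9.96 and 9.95 in wild type. It read 9.77, 9.88 and 9.66 in R216Q, 9.61, 9.60 and 9.66 in R216W and 9.60, 9.53 and 9.59 in D218Y, all below wild type. The D218G arrays, at 10.11, 10.05 and 10.23, were all above it. The differences were -0.33 ± 0.06 in R216W (adjusted p = 0.000503), -0.38 ± 0.06 in D218Y (adjusted p = 3.75e-05) and -0.19 ± 0.06 in R216Q (adjusted p = 0.023). The rise in D218G (0.18 ± 0.06, adjusted p = 0.0388) was lost when any 1 of 9 arrays was left out, replicate 3 of D218G among them (0.13, adjusted p = 0.148), and the R216Q fall with any 1 of 5 left out (adjusted p up to 0.121). Orc6, the smallest subunit, lay between 11.01 and 11.19 on all arrays.

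Cdt1, which works with Cdc6 to load the helicase, rose in both D218 lines and in neither R216 line. Its arrays read 10.35, 10.26 and 10.39 in wild type, 10.36, 10.34 and 10.38 in R216Q and 10.30, 10.43 and 10.37 in R216W. They read 10.53, 10.54 and 10.56 in D218G and 10.55, 10.55 and 10.50 in D218Y. Both D218 lines lay wholly above the other 3 lines. The rises were 0.21 ± 0.04 (adjusted p = 0.00193) and 0.20 ± 0.04 (adjusted p = 0.00106). Gmnn, which encodes geminin, the inhibitor that binds Cdt1, had line means between 7.64 and 7.75 and passed in no line.

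The helicase subunits Mcm2 to Mcm7 all fell in D218Y. The differences there were -0.16 for Mcm2, -0.11 for Mcm3, -0.13 for Mcm4, -0.25 for Mcm5, -0.25 for Mcm6 and -0.27 for Mcm7, each ± 0.03 or 0.04 (adjusted p from 1.25e-05 to 0.0133). With equal array medians only Mcm5 and Mcm7 passed, at -0.16 and -0.17. In R216Q 4 of the 6 fell, namely Mcm4, Mcm5, Mcm6 and Mcm7, by 0.15 to 0.19. In R216W 1 fell, Mcm5 (-0.12 ± 0.03, adjusted p = 0.0169). In D218G 0 passed by limma, and at an unadjusted p under 0.05 it placed 2 higher and 0 lower. Mcm6 is an example chosen after the values were seen, and Mcm2, Mcm3 and Mcm5 did not share its calls. It read 11.90, 11.99 and 11.93 in wild type, 11.91, 11.93 and 11.93 in R216W, and 11.92, 11.87 and 11.97 in D218G. It read 11.76, 11.78 and 11.81 in R216Q and 11.66, 11.69 and 11.71 in D218Y, below every array of those 3 lines. With equal array medians neither Mcm6 fall passed by limma (adjusted p = 0.155 in R216Q and 0.0703 in D218Y). Mcm10, a scaffold that acts when the helicase is activated, passed only in R216W (-0.11 ± 0.03, adjusted p = 0.0358).

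The helicase activators Cdc45, Gins1 and Gins2 fell together in R216Q and D218Y, and Gins3 did not pass in any line. Gins2 moved furthest. It read 10.10, 10.13 and 10.20 in wild type, 9.92, 9.84 and 9.90 in R216Q and 9.90, 9.90 and 9.95 in R216W. It read 10.24, 10.30 and 10.25 in D218G and 9.58, 9.53 and 9.47 in D218Y. R216Q, R216W and D218Y were wholly below wild type, and D218G was wholly above it without passing (0.12 ± 0.04, adjusted p = 0.0703). The falls were 0.62 on the log2 scale in D218Y (SE 0.04, adjusted p = 1.01e-08), 0.26 in R216Q (adjusted p = 0.000275) and 0.23 in R216W (adjusted p = 0.00104).

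Cdc45 fell by 0.47 in D218Y, by 0.34 in R216Q and by 0.16 in R216W (SE 0.04 each; adjusted p = 3.2e-08, 4.2e-06 and 0.00402), and it was -0.11 in D218G (adjusted p = 0.0514). Gins1 read 10.41, 10.46 and 10.36 in wild type, 10.24, 10.27 and 10.23 in R216Q, and 10.31, 10.40 and 10.34 in R216W. It read 10.19, 10.18 and 10.38 in D218G and 9.94, 9.94 and 10.04 in D218Y. The third D218G array overlapped wild type, and the others of that line did not. The difference in D218G was -0.16 ± 0.05 (adjusted p = 0.0447) with all arrays and -0.23 (adjusted p = 0.00198) without replicate 3, and the call was lost when any 1 of 12 other arrays was left out (adjusted p up to 0.17). In D218Y Gins1 fell by 0.44 on the log2 scale (SE 0.05, adjusted p = 6.25e-06).

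Polymerase and primase genes did not move as a block. Pold1, the catalytic subunit of polymerase delta, read 10.32, 10.27 and 10.36 in wild type. In R216W it read 10.14, 10.25 and 10.16, just below wild type without passing. In D218G it read 10.21, 10.36 and 10.22, which overlaps wild type. In R216Q it read 10.02, 9.92 and 9.90 and in D218Y 9.89, 9.99 and 9.95, with no overlap with wild type. It fell by 0.37 on the log2 scale in both (SE 0.05; adjusted p = 7.05e-05 in R216Q and 2.13e-05 in D218Y). Pole, the catalytic subunit of polymerase epsilon, fell in R216W (-0.20 ± 0.03, adjusted p = 0.000411) and D218Y (-0.22 ± 0.03, adjusted p = 4.21e-05). Its partner Pole2 rose in D218G (0.17 ± 0.04, adjusted p = 0.0032) and fell in D218Y (-0.12 ± 0.04, adjusted p = 0.0171), the latter not without replicate 2 of wild type or of D218Y (adjusted p up to 0.0779). With equal array medians neither gene passed in these lines.

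Prim2, the large primase subunit, stood out in R216W. Its arrays there read 11.64, 11.64 and 11.63, above all other arrays. It read 11.27, 11.39 and 11.31 in wild type, 11.40, 11.48 and 11.40 in R216Q, 11.36, 11.33 and 11.39 in D218G and 11.36, 11.31 and 11.37 in D218Y. The rise in R216W was 0.31 ± 0.04 (adjusted p = 4.11e-05), and the other lines did not pass. Pola2, the accessory subunit of polymerase alpha, read 10.59, 10.59 and 10.61 in wild type, 10.59, 10.61 and 10.48 in R216Q and 10.54, 10.40 and 10.49 in R216W. It read 10.72, 10.76 and 10.83 in D218G and 10.82, 10.81 and 10.81 in D218Y, above every array of the other lines. The rises were 0.22 ± 0.05 in D218Y (adjusted p = 0.00124) and 0.17 ± 0.05 in D218G (adjusted p = 0.015), and the latter was 0.14 (adjusted p = 0.056) without replicate 3 of D218G. Pola1, the catalytic subunit, fell only in R216Q (-0.19 ± 0.05, adjusted p = 0.0189), a call lost without replicate 2 of wild type or replicates 1 or 3 of R216Q (adjusted p up to 0.091).

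Among the clamp and its loader, a single gene carried most of the change. Rfc2, a small subunit of replication factor C, read 10.98, 10.89 and 10.99 in wild type. It read 10.38, 10.37 and 10.34 in R216Q and 10.36, 10.44 and 10.34 in D218Y. It read 10.57, 10.49 and 10.55 in R216W and 10.65, 10.64 and 10.60 in D218G. All 12 mutant arrays were below all wild type arrays. The falls on the log2 scale were 0.59 in R216Q (adjusted p = 7.51e-08), 0.57 in D218Y (adjusted p = 1.77e-08), 0.41 in R216W (adjusted p = 3.92e-06) and 0.32 in D218G (adjusted p = 4.51e-05), with an SE of 0.04 each. The level decreased by 33.4% in R216Q and by 20% in D218G. These calls held with any single array left out and with equal array medians.

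The other subunits of the same 5-part complex changed by no more than 0.13. Rfc1, the large subunit, had the smallest range of line means of all genes without a call, from 10.44 to 10.51. It read 10.41, 10.47 and 10.54 in wild type and 10.54, 10.49 and 10.48 in D218Y, with arrays of the other lines between 10.40 and 10.55. Rfc3 read 10.31, 10.40 and 10.40 in wild type and 10.47, 10.48 and 10.51 in R216W, where it passed narrowly (0.11 ± 0.04, adjusted p = 0.0489). Rfc3 lay between 10.37 and 10.39 in R216Q, between 10.41 and 10.44 in D218G and between 10.34 and 10.42 in D218Y. Rfc4 fell in D218Y (-0.12 ± 0.04, adjusted p = 0.0166). Rfc5 fell in R216W (-0.13 ± 0.04, adjusted p = 0.0245) and rose in D218G (0.11 ± 0.04, adjusted p = 0.0481). The Rfc3, Rfc4 and Rfc5 calls were each lost without some arrays and with equal array medians. Pcna, the sliding clamp, read 12.04, 12.16 and 12.08 in wild type and 12.07, 12.07 and 12.08 in D218Y. Its line means ran from 12.03 to 12.14, all lines overlapped wild type, and its second probe set gave no call either.

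**Figure D3:**
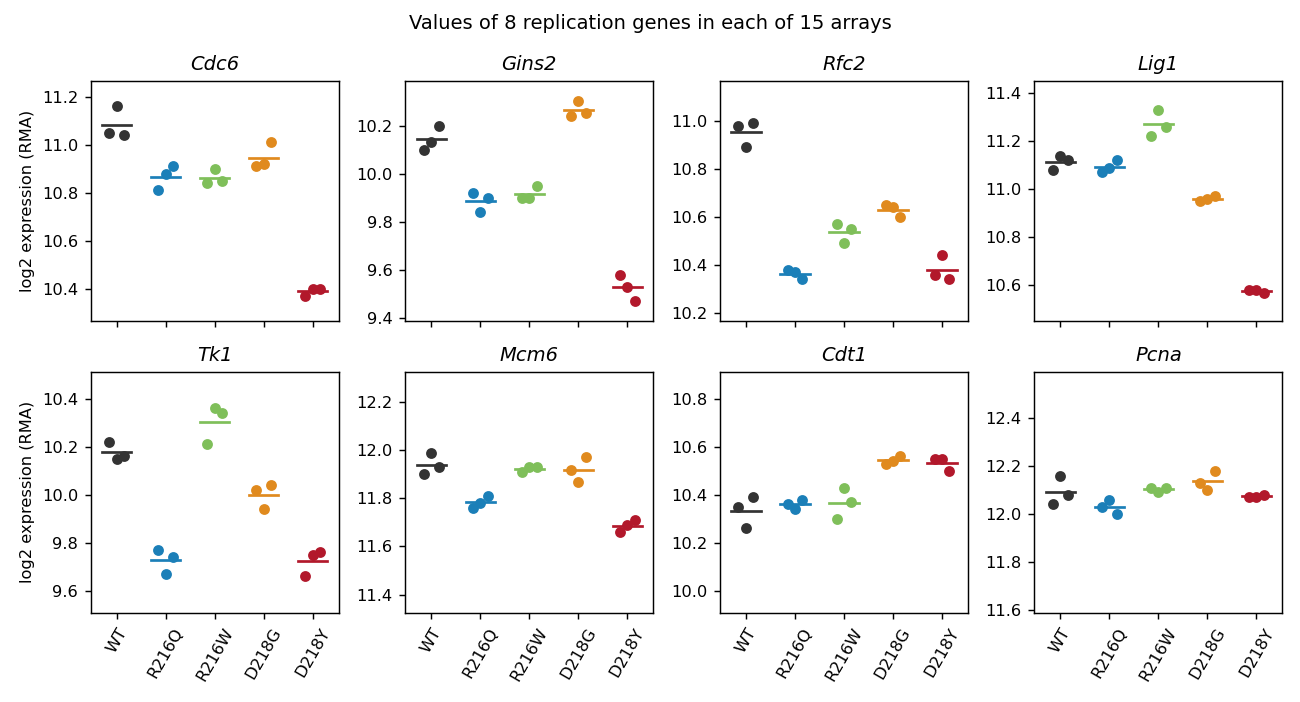
Log2 expression of 8 replication genes on each of the 15 arrays, with a bar at each line's mean of 3; every panel spans the same number of log2 units, centred on the gene. Rfc2 is below wild type on all 12 mutant arrays, Cdc6 and Lig1 are lowest in D218Y, Tk1 is low in R216Q and D218Y but not in R216W, and Pcna overlaps wild type in every mutant line.

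Rpa1, Ung and Uhrf1 rose in both D218 lines. Rpa1, the large subunit of the protein that coats unwound DNA, read 10.61, 10.65 and 10.54 in wild type, 10.77, 10.71 and 10.81 in D218G and 10.78, 10.76 and 10.81 in D218Y. It read 10.66, 10.69 and 10.59 in R216Q and 10.60, 10.67 and 10.61 in R216W, overlapping wild type. The rises were 0.19 ± 0.04 in D218Y (adjusted p = 0.00231) and 0.16 ± 0.04 in D218G (adjusted p = 0.0142), the latter 0.14 (adjusted p = 0.0517) without replicate 3 of D218G. Leaving out the third wild type array ended it too (adjusted p = 0.0691). Rpa2, its partner, rose in D218G (0.13 ± 0.03, adjusted p = 0.0161), was at 0.01 ± 0.03 in D218Y (adjusted p = 0.84) and fell in R216Q (-0.10 ± 0.03, adjusted p = 0.0467). These calls were lost without replicate 2 of wild type or replicate 1 of D218G for the former, and with any 1 of 12 arrays left out for the latter (adjusted p up to 0.0682 and 0.171).

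Ung, the glycosylase that removes uracil from DNA, read 8.43, 8.42 and 8.59 in wild type, 8.46, 8.39 and 8.34 in R216Q and 8.33, 8.41 and 8.43 in R216W. It read 8.70, 8.83 and 8.90 in D218G and 8.69, 8.61 and 8.61 in D218Y. Both D218 lines were wholly above the other lines. The rise was 0.33 ± 0.06 in D218G (adjusted p = 0.000842, a level 25.8% higher) and 0.16 ± 0.06 in D218Y (adjusted p = 0.0429), the latter lost when any 1 of 8 arrays was left out. Uhrf1, which brings the maintenance methyltransferase to newly copied DNA, rose in D218G (0.17 ± 0.04, adjusted p = 0.00965) and D218Y (0.15 ± 0.04, adjusted p = 0.00651). It fell in R216Q (-0.15 ± 0.04, adjusted p = 0.0136), a call lost without replicate 3 of wild type or replicates 1 or 2 of R216Q (adjusted p up to 0.0707).

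The enzymes that finish Okazaki fragments both fell by the same amount in D218Y but parted in R216W. Fen1, the flap nuclease, read 10.65, 10.60 and 10.67 in wild type and 10.11, 10.08 and 10.12 in D218Y. It read 10.33, 10.38 and 10.36 in R216Q, 10.28, 10.36 and 10.35 in R216W and 10.56, 10.49 and 10.60 in D218G. All 4 mutant lines lay wholly below wild type. The falls in R216Q, R216W and D218Y were 0.29 (adjusted p = 4.93e-05), 0.31 (adjusted p = 3.12e-05) and 0.54 (adjusted p = 1.84e-08) on the log2 scale, with an SE of 0.04 each, and D218G did not pass (-0.09 ± 0.04, adjusted p = 0.139). Lig1, the DNA ligase that seals the fragments, read 11.08, 11.14 and 11.12 in wild type and 11.07, 11.09 and 11.12 in R216Q. It read 11.22, 11.33 and 11.26 in R216W, above all other arrays, and 10.95, 10.96 and 10.97 in D218G. In D218Y it read 10.58, 10.58 and 10.57, below all others. Lig1 rose in R216W (0.16 ± 0.04, adjusted p = 0.00664) and fell in D218G (-0.15 ± 0.04, adjusted p = 0.00656) and D218Y (-0.54 ± 0.04, adjusted p = 9.92e-09). The rise was not called with equal array medians (adjusted p = 0.057) or with the arrays of these lines alone (adjusted p = 0.0529).

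Of the 4 deoxynucleotide supply genes in the list, Tk1 moved most. Tk1, the thymidine kinase of dividing cells, read 10.22, 10.15 and 10.16 in wild type and 10.21, 10.36 and 10.34 in R216W, which overlap. It read 9.77, 9.67 and 9.74 in R216Q, 10.02, 9.94 and 10.04 in D218G and 9.66, 9.75 and 9.76 in D218Y. These last 3 lines were wholly below wild type, and R216Q and D218Y shared the lowest range. The falls were 0.45 on the log2 scale in R216Q (SE 0.05, adjusted p = 6.97e-06) and 0.45 in D218Y (adjusted p = 1.88e-06), and 0.17 in D218G (adjusted p = 0.0226). Its second probe set gave -0.67 ± 0.09 in R216Q, -0.57 ± 0.09 in D218Y and -0.11 in D218G, where it did not pass (adjusted p = 0.512 over all probe sets). That call did not hold when replicate 2 of D218G or replicate 1 of wild type was left out (adjusted p up to 0.0988).

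Rrm1, the large subunit of ribonucleotide reductase, fell in R216Q (-0.14 ± 0.04, adjusted p = 0.00931) and D218Y (-0.25 ± 0.04, adjusted p = 4.4e-05), in neither with equal array medians. Rrm2, the small subunit that limits the enzyme in S phase, did not pass against wild type, with line means from 11.86 to 11.99. Tyms, thymidylate synthase, read 10.89, 10.89 and 10.90 in wild type and 10.87, 10.90 and 10.87 in D218Y. All its arrays lay between 10.85 and 11.02, with D218G just above wild type and the other lines overlapping it.

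Different changes of the same residue were then compared directly. R216W was higher than R216Q in 11 of the 39 genes and lower in 2. Among all genes 8.25% were higher and 8.65% lower, and in the brightest 20% 19.7% and 20.8%. Tk1 showed the widest gap: its level was 10.21 to 10.36 in R216W and 9.67 to 9.77 in R216Q. The difference was 0.58 ± 0.05 (adjusted p = 7.43e-07), a level 49.3% higher in R216W, and 0.70 ± 0.09 on the second probe set. Pold1 followed at 0.24 ± 0.05 (adjusted p = 0.00394), then Prim2 at 0.21 ± 0.04 (adjusted p = 0.00142). Lig1, Cdc45 and Rfc2 were each 0.18 ± 0.04 higher (adjusted p = 0.00249, 0.00201 and 0.00634). The others were Pola1, Mcm6, Mcm4, Uhrf1 and Rpa2, at 0.11 to 0.19. Rrm2 and Pole were lower in R216W, by 0.13 and 0.12 on the log2 scale (adjusted p = 0.0322 and 0.0221). Arrays did not overlap for 16 genes on the high side and 4 on the low side (14.7% and 16.1% of all genes). The first 6 genes named held with any single array left out and with equal array medians, and the other 7 did not. Among all genes 5.89% were higher and 4.33% lower with equal medians. Without replicate 1 of R216Q or replicate 2 of R216W 6 genes were higher, and 7 without replicate 1 or 3 of R216W, in place of 11.

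D218Y was lower than D218G in 23 of the 39 genes and higher in 0. Among all genes 15.6% were lower and 17.4% higher, and in the brightest 20% 32.8% and 32.4%. Arrays lay wholly below for 26 genes and wholly above for 0 (20.6% and 19.8% of all genes), and at an unadjusted p under 0.05 limma placed 25 lower and 0 higher. The median of the 39 was -0.17, against -0.04 for all genes. Gins2 differed most (-0.73 ± 0.04, adjusted p = 3.24e-09), so the level decreased by 39.9% from D218G to D218Y. It was followed by Cdc6 (-0.56 ± 0.04, adjusted p = 7.88e-08) and Orc1 (-0.56 ± 0.06, adjusted p = 1.23e-06). All of Mcm2 to Mcm7 were lower, by 0.17 to 0.25 on the log2 scale. Fen1 (-0.45 ± 0.04), Lig1 (-0.38 ± 0.04), Cdc45 (-0.36 ± 0.04), Pold1 (-0.32 ± 0.05) and Tk1 (-0.28 ± 0.05) were also lower. Cdt1, Pola2, Rpa1 and Uhrf1, which rose against wild type in both lines, did not pass between them, with differences from -0.01 to 0.04 (SE 0.04 or 0.05). Equal array medians left 14 lower and 0 higher, and among all genes 8.1% were then lower and 18.8% higher. Of the 23, 20 held with any single array left out, and Rfc5, Rpa2 and Ung did not (adjusted p up to 0.0796, 0.0594 and 0.0994). Without replicate 3 of D218G the median of the 39 was -0.14 and that of all genes -0.06, and 26.2% of all genes were lower and 19.8% higher.

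**Figure D4:**
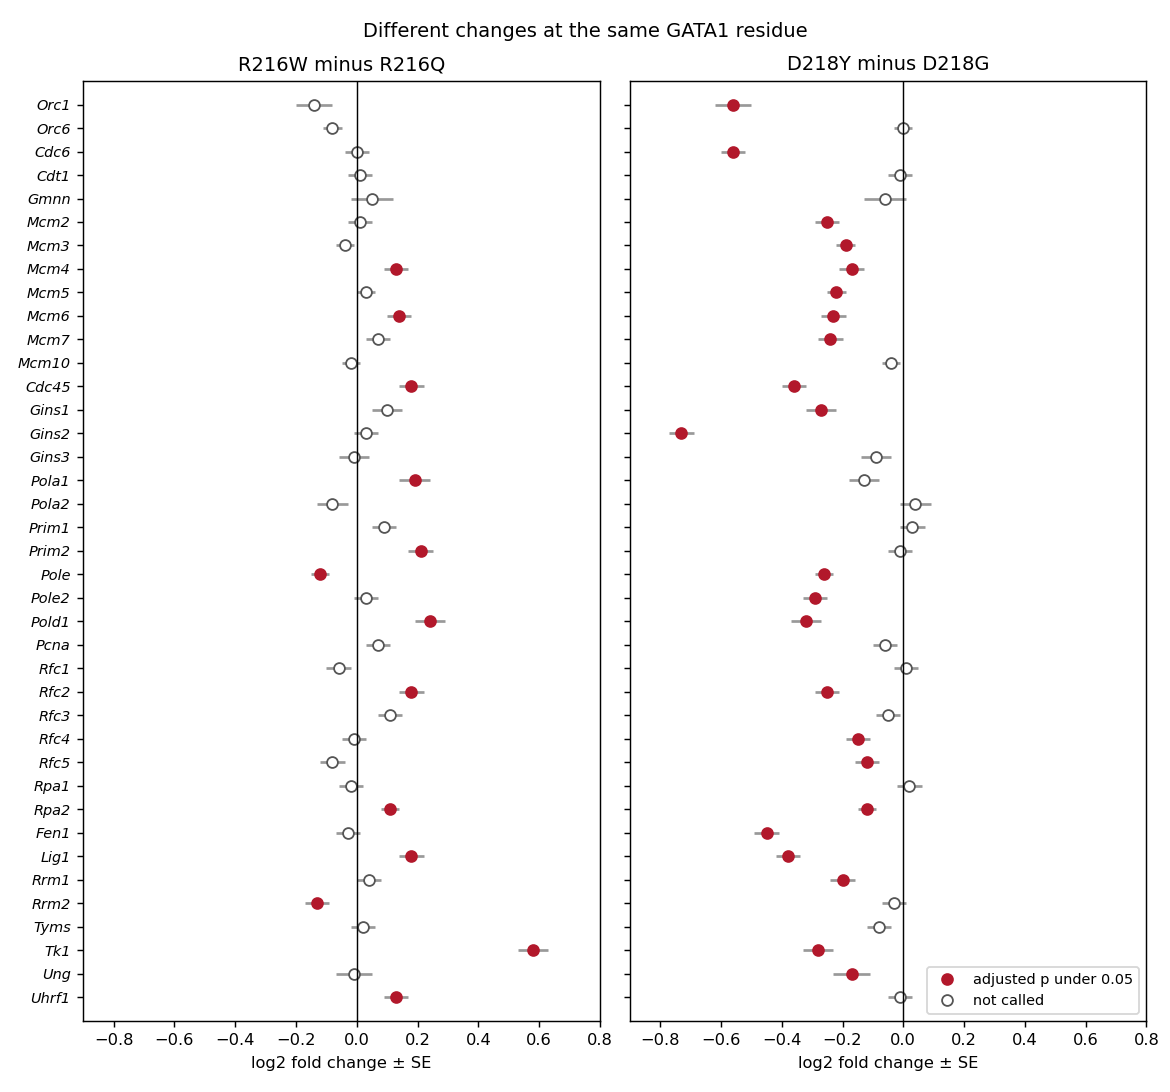
Log2 difference of each of the 39 genes between lines that carry different changes of one residue, R216W minus R216Q (left) and D218Y minus D218G (right), with limma's SE as bars and filled points at an adjusted p under 0.05. Tk1 lies at 0.58 on the left, and on the right all 23 filled points are below 0.

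Genes with E2F type letters before or just after the start were compared with those without, as counts. In D218Y 9 of the 14 with letters fell and 2 rose (median -0.18), and 6 of the 18 without fell and 3 rose (median -0.0). In R216Q 8 of the 14 fell (median -0.15) and 5 of the 18 (median -0.06). In D218G 4 of the 14 rose and 2 fell, and 5 of the 18 rose and 1 fell. The 14 include Uhrf1 and Cdt1, which rose in D218Y, so genes with the letters went both ways there. In R216W 3 of the 14 fell and 2 rose, and 4 of the 18 fell and 0 rose. Of the 7 genes with no window, 5 fell in D218Y (median -0.22) and 4 in R216Q (median -0.16). In R216Q, R216W, D218G and D218Y 9.65%, 7.23%, 7.77% and 24.2% of all genes fell and 11.8%, 9.36%, 10.3% and 20.3% rose. Of the brightest 20%, 24.8%, 19.1%, 20.5% and 36.7% fell and 25.4%, 19.3%, 20.3% and 37.5% rose. The difference between the genes with and without letters was not tested.

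A further 40 replication genes and 28 of 30 nucleotide supply genes that are not in the list were set beside it. Of the other replication genes 5 were higher and 15 lower in R216Q (median -0.10), 5 and 13 in R216W (-0.04), 10 and 2 in D218G (0.03) and 12 and 16 in D218Y (-0.06). The medians of all genes in these lines were -0.01, -0.02, -0.02 and -0.07. Of all genes 11.8%, 9.36%, 10.3% and 20.3% were higher and 9.65%, 7.23%, 7.77% and 24.2% lower. Of the brightest 20%, 25.4%, 19.3%, 20.3% and 37.5% were higher and 24.8%, 19.1%, 20.5% and 36.7% lower. In D218Y 70% of the 40 were called in either direction, below the 74.2% of the brightest 20%. In D218Y against D218G 8 were higher and 20 lower (-0.12, against -0.04 for all genes). There 17.4% of all genes were higher and 15.6% lower, and 32.4% and 32.8% of the brightest 20%. Rnaseh2a, the catalytic subunit of the nuclease that removes RNA from DNA, fell in all 4 mutant lines, by 0.51 in R216Q, 0.18 in R216W, 0.30 in D218G and 0.85 in D218Y on the log2 scale (SE 0.04; adjusted p = 6.95e-11 in D218Y). Orc2, another origin complex subunit, fell only in R216W (-0.61 ± 0.04, adjusted p = 1.75e-07). Pold2, the partner of Pold1 in polymerase delta, rose in all 4 mutant lines, by 0.42, 0.29, 0.40 and 0.91 in R216Q, R216W, D218G and D218Y (SE 0.04). In R216Q and D218Y, therefore, Pold1 fell while Pold2 rose. The helicase and nuclease Dna2 (0.90 ± 0.05) and the initiation factor Recql4 (0.62 ± 0.04) rose in D218Y, and Dscc1, of an alternative clamp loader, fell there (-0.66 ± 0.09, adjusted p = 3.36e-05). In D218G the counts were 7 higher and 6 lower without replicate 3. With equal array medians 9 were lower in R216Q, 3 higher and 4 lower in R216W, and 6 higher and 1 lower in D218G.

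Most nucleotide supply genes outside the list rose in 3 of the mutant lines. Of 28, 17 rose and 4 fell in R216Q (median 0.23), 8 and 2 in R216W (0.07), 18 and 3 in D218G (0.24) and 22 and 4 in D218Y (0.55). In these lines 11.8%, 9.36%, 10.3% and 20.3% of all genes rose, with medians of -0.01, -0.02, -0.02 and -0.07. Of the brightest 20%, 25.4%, 19.3%, 20.3% and 37.5% rose. The shares that fell are given above. Dctd, the deaminase that feeds thymidylate synthesis, had a mean of 8.01 in wild type and 10.16 in D218Y, a rise of 2.16 ± 0.05 (adjusted p = 4.53e-14). It rose by 0.85 in R216Q, 0.46 in R216W and 0.78 in D218G (SE 0.05). Mthfd1 and Shmt1, enzymes of the folate cycle, rose in D218Y by 1.38 ± 0.03 and 1.31 ± 0.05. Samhd1, a hydrolase of deoxynucleotides, rose in R216Q (0.76 ± 0.05) and R216W (0.82 ± 0.05) but was at 0.03 ± 0.05 in D218G (adjusted p = 0.795). The salvage kinases Dck and Dguok fell in D218Y, by 0.86 and 0.64 on the log2 scale (SE 0.04), and Dck fell in all 4 lines. The 4 listed genes of deoxynucleotide supply showed 0 rises in these lines by limma and at an unadjusted p under 0.05 it placed 1 higher in R216W and 0 in the others. In D218G 5 nucleotide supply genes fell without replicate 3, and 1 with equal array medians.

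**Figure D5:**
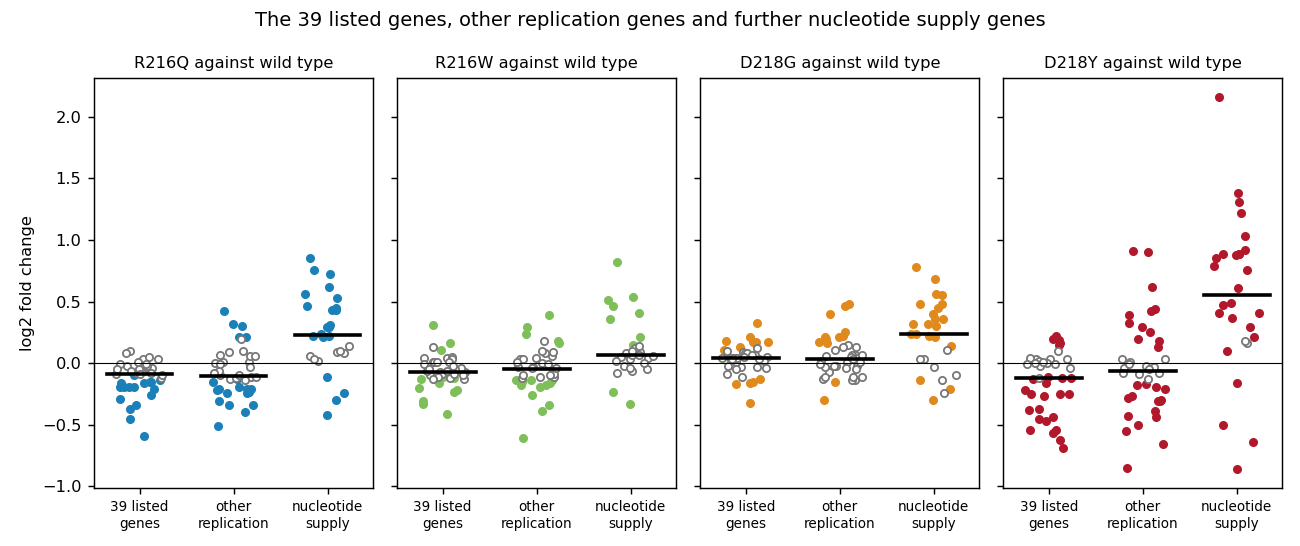
Log2 fold change of single genes in each mutant line against wild type, for the 39 listed genes, 40 other replication genes and 28 further nucleotide supply genes; filled points passed the test and bars are medians. In D218Y the medians are -0.12, -0.06 and 0.55, and the top point is Dctd at 2.16.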

How the data were processed

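Total RNA of 15 cultures was measured on Affymetrix mouse arrays, with 3 biological replicates of each of 5 lines named by the sample titles. The deposited values are log2 expression per probe set and array, which the authors made with Partek 6.6 and RMA, per the submitters' processing notes. RMA evens out arrays at the level of probes and understates changes of dim genes; the deposited array medians still ran from 6.24 to 6.41. The sources used here do not give its settings. The values ran from 2.89 to 13.58 and were used as deposited, with no filter. Precision is limited by the number of arrays.

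Of 28350 probe sets, 21780 had 1 gene symbol in the platform annotation, 1618 several and 4952 none. Single-symbol probe sets were kept, the brightest per gene (996 genes had several), which gave 19933 genes. By gene identifier 21689 were found in the RefSeq gene table, which altered 0 symbols.

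In R 4.3.3, limma 3.58.1 fitted a mean for each line to all 15 arrays (lmFit), with eBayes without trend, two-sided p-values adjusted by Benjamini-Hochberg over every gene, and calls at an adjusted p under 0.05. The fit was tested on simulated data with independent noise for each gene and no shift of whole arrays. That test cannot speak to calls that depend on the array medians. The F test covered the 4 contrasts with wild type together. The members, role groups, further lists and markers were chosen with earlier results of these data known, so their counts are descriptions. Genes read array by array were the 3 largest rises and falls past the threshold per mutant line and the 3 genes without a call whose line means varied least. The share called in the brightest 20% of genes and Mcm6 as an example were chosen after the values were seen.

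Alternatives were quantile normalization, equal array medians, genes above the median level, the compared lines alone, eBayes with trend and robust, array weights, an adjusted p under 0.01, the mean of probe sets, the replicate number as a block and each array left out. Same-numbered arrays did not deviate together: over 30 pairs of arrays the correlation of deviations had a median of -0.02, and 3 pairs were over 0.1. Promoter windows came from RefSeq (GRCm38.p6).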

Additional observations from a re-analysis of the deposited data

Results flagged for a closer look

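There were 6 genes that passed against wild type in opposite directions in a pair of mutant lines. In each the lines also differed from each other by limma. That difference is made up of the opposite calls by which the genes were picked, so it is no separate support for them. The pair with the widest gap is given for each gene. Lig1, the replicative DNA ligase, was lower in D218Y than in R216W (-0.69 ± 0.04, adjusted p = 7.51e-10), with the 3 D218Y arrays at 10.57 to 10.58 and the 3 R216W arrays at 11.22 to 11.33. Orc1 was lower in D218Y than in D218G (-0.56 ± 0.06, adjusted p = 1.23e-06), and so was Pole2 (-0.29 ± 0.04, adjusted p = 1.41e-05). Uhrf1 was higher in D218G than in R216Q (0.32 ± 0.04, adjusted p = 7.01e-05), as was Rpa2 (0.23 ± 0.03, adjusted p = 0.000259). Rfc5 was higher in D218G than in R216W (0.24 ± 0.04, adjusted p = 0.000152). Several of the calls against wild type behind these pairs were lost when single arrays were left out, among them Orc1, Rfc5 and Rpa2 in D218G (adjusted p up to 0.148, 0.158 and 0.0682). With equal array medians no gene of the 6 kept calls in opposite directions against wild type. Pole2, Rfc5 and Rpa2 then lost both calls, Orc1 its rise in D218G, Lig1 its rise in R216W and Uhrf1 its fall in R216Q. The differences of Orc1 and Pole2 between D218Y and D218G still passed by limma (-0.49 and -0.22).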

How the results depend on the processing

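No result changed direction while called under any alternative run. Of 29 single gene results, 627 of 696 values kept their side of the threshold. With each array shifted to the same median, the calls were 8 lower in R216Q, 1 higher and 4 lower in R216W (median -0.04), 3 higher and 1 lower in D218G (median 0.06), 12 lower in D218Y (median -0.02), 6 higher and 0 lower in R216W against R216Q (median 0.05) and 14 lower in D218Y against D218G (median -0.10). Under that setting the other replication genes numbered 9 lower in R216Q, 3 higher and 4 lower in R216W, and 6 higher and 1 lower in D218G, and the nucleotide supply genes 1 lower in D218G. These list counts were recomputed after seeing the data. Quantile normalization gave 1 higher in R216Q, 4 lower in R216W against R216Q, and in D218G 6 other replication genes and 5 nucleotide supply genes lower, the same counts as without replicate 3 of D218G. Among genes above the median level, 1 was higher in R216Q, 16 lower in R216W and 4 lower in R216W against R216Q. With the compared lines alone, 1 was higher in R216W, 2 higher and 1 lower in D218G, and 0 lower in R216W against R216Q. With trend and robust, 1 was higher in R216Q, 16 lower in R216W and 5 lower in R216W against R216Q. Array weights gave 2, 16 and 6 for these, with 3 lower in D218G and a median of -0.09 in D218Y. At an adjusted p under 0.01, D218G had 4 higher and 2 lower, and R216W against R216Q 6 higher and 0 lower.

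With single arrays left out, the counts ran from 0 to 1 higher and 12 to 17 lower in R216Q (median -0.11 to -0.08), from 2 to 3 and 7 to 12 in R216W (-0.08 to -0.06), from 6 to 8 and 2 to 5 in D218G (0.02 to 0.06), and from 4 to 6 and 18 to 20 in D218Y (-0.13 to -0.10). They ran from 6 to 11 higher and 0 to 2 lower in R216W against R216Q (0.02 to 0.04) and from 21 to 23 lower in D218Y against D218G (-0.18 to -0.14). The D218G falls numbered 2 without replicate 1 of wild type or replicate 2 of D218G.

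The replicate numbers were not shown to pair the arrays: 2 of 15 arrays correlated best with an array of their own number. With the replicate number as a block, 15, 11, 11 and 24 of the 39 genes were called in R216Q, R216W, D218G and D218Y, in place of 17, 13, 14 and 25.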
